A study of Caenorhabditis elegans with 6 samples.

Results

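The genes described here encode proteins of nematode sperm, read in larvae that do not yet make sperm. They were chosen by name from the gene annotation of the array, as the genes of the msp, spe, ssp and nspd families measured by a probe set with a single gene symbol, and each gene was represented by its brightest such probe set over all arrays. This gave 66 of the 17118 genes measured, 23 msp, 29 spe, 8 ssp and 6 nspd genes. RNA came from first-stage (L1) Caenorhabditis elegans larvae that hatched without food. They were collected after 30 h at 20 °C in cholesterol-free S-basal buffer, counted from the bleaching that frees embryos, and the RNA was hybridised to a one-colour Affymetrix array. Of the arrays, 3 held wild-type larvae and 3 held lin-35(n745) larvae, which carry a premature stop in the only retinoblastoma gene of the worm, and the labels call the arrays of a genotype biological replicates. Both genotypes were starved, so each difference below is one between genotypes within starvation.

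Sperm of C. elegans crawl without actin. Their movement depends on major sperm protein (MSP), the product of the many near-identical msp genes, which assembles into filaments and is also released as a signal that starts oocyte maturation and contraction of the gonadal sheath. The spe genes were found through mutants with defective spermatogenesis, sperm activation or fertilization, the ssp genes encode small proteins with an MSP-like domain, and the nspd genes encode short nematode-specific peptides. In the hermaphrodite, sperm are made in the last larval stage, whereas the germline of a newly hatched larva consists of primordial germ cells. LIN-35 represses transcription as part of the DREAM complex, and loss of it is known to let somatic larval cells express genes of the germline, and sperm protein genes are germline genes of a late kind.

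Levels are given on the log2 scale that RMA (robust multi-array average) produced, and differences are lin-35(n745) minus wild type, with the standard error (SE) of limma. The words rose, fell and called are kept for a gene whose limma p-value, adjusted over all 22548 probe sets, lies below 0.05. Array medians lay between 5.91 and 6.11. The lin-35 transcript differed by 0.06 on its brighter probe set (SE 0.19, limma adjusted p = 0.894) and by 0.13 on the other (adjusted p = 0.803). A premature stop need not change the level of a transcript, so these readings do not check the genotype labels. Markers of larval muscle, intestine, pharynx, epidermis and neurons had list medians of 8.49 to 11.6. Between the genotypes, 11.3% of probe sets were called. The precision of every value is limited by having 3 arrays of each genotype.

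Most sperm protein genes read at the dim end of the array in both genotypes. The median member had a mean level of 4.86, against 6.05 for all genes measured. Of the 66 members, 61 had a mean below the median of all probe sets (6.00), 18 lay below the 25th percentile (4.29) and 6 below the 10th (3.64). Of all genes, by comparison, 49.5% lay below the median and 24.5% below the 25th percentile. The members were thus concentrated between the 25th percentile and the median rather than at the bottom of the brightness range.

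Control probe sets for bacterial and yeast genes gave a second scale for dim readings. The 32 of them had means between 3.01 and 5.49, with a median of 3.43. Whether their transcripts were added to the samples is not given in the sources used here. Of the members, 48 had a mean within that range and 18 lay above it (27.3%, against 56.3% of all genes). The 18 were 9 msp, 6 spe and 3 nspd genes and no ssp gene. For the 48, the deposited values do not separate a low transcript level from background.

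**Figure D1:**
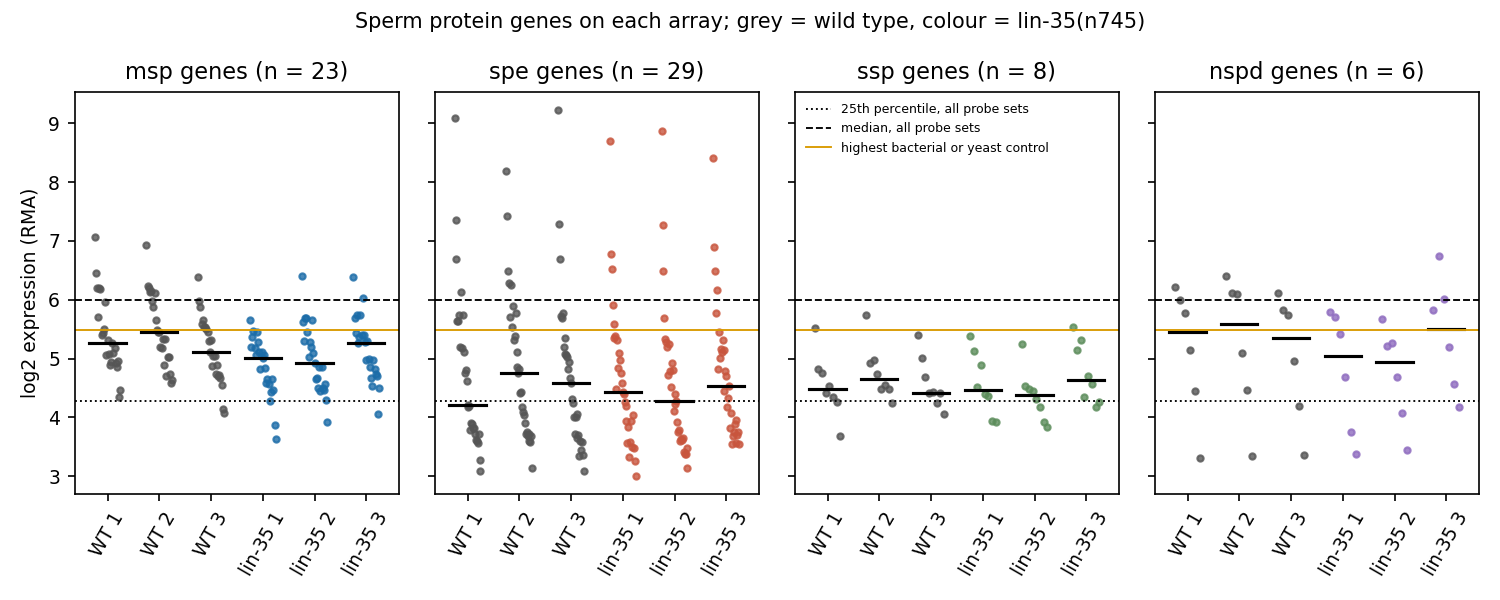
Log2 expression of the 66 sperm protein genes on each array, by family, with wild-type arrays in grey and lin-35(n745) arrays in colour. Each point is a gene and each short bar the family's median on that array; the lines give the 25th percentile and the median of all probe sets and the highest mean of a bacterial or yeast control probe set. Most points lie under the dashed line at 6.00 on all 6 arrays.

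The brightest members were spe genes whose level in larvae stood well apart from the rest of the family. The highest was spe-48, which read 9.09, 8.18 and 9.22 in wild-type replicates 1 to 3 and 8.69, 8.87 and 8.40 in the mutant replicates. The groups overlapped and the difference was −0.18 (95% interval −0.86 to 0.51, limma adjusted p = 0.794). Its mean of 8.74 put it above 82.1% of all probe sets.

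The trafficking gene spe-39, whose product acts with the membrane fusion regulator VPS33 in vesicle traffic outside sperm as well, came next. It read 7.35, 7.43 and 7.29 in the wild type and 6.78, 7.26 and 6.90 in the mutant. All mutant readings lay below all wild-type readings, but the difference of −0.37 did not pass the threshold (SE 0.17, limma adjusted p = 0.218) and was −0.22 with the actin covariate. The myosin VI gene spe-15 read 6.69, 6.50 and 6.70 in the wild type and 6.52, 6.49 and 6.49 in the mutant, a difference of −0.12 (95% interval −0.45 to 0.20, adjusted p = 0.667). In spe-15 the lowest wild-type array overlapped the mutant arrays.

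The brightest msp gene was msp-65, at 7.07, 6.93 and 6.39 in the wild type and 5.66, 6.40 and 6.39 in the mutant. Its lowest reading was on mutant replicate 1, while mutant replicates 2 and 3 met the lowest wild-type array. The difference of −0.64 (SE 0.27, 95% interval −1.28 to −0.00) did not pass the threshold after adjustment (limma adjusted p = 0.186). It was −0.40 without mutant replicate 1 and −0.36 with the actin 3' to 5' difference as a covariate. The peptide genes nspd-2 (mean 6.00) and nspd-7 (5.94) completed the 6 brightest.

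None of the 66 sperm protein genes was called higher in lin-35(n745), and 2 were called lower, which is 3.03% of them. Among all genes, 11.8% were called, 5.71% higher and 6.12% lower. At an unadjusted p under 0.05, 12 members, 8 of them msp genes, were lower (18.2%), beside 15.5% of all genes and 5.90% of those with a mean below the median of all probe sets. By that measure 0 members were higher, beside 11.8% of all genes and 6.17% of the dim ones. Dim genes are called less often, and among the 8473 genes with a mean below that median 4.04% were called, 2.56% higher and 1.48% lower. Read against those shares, the members' count of calls was near the background in both directions. As a set, however, those dim genes were dimmer than the members, so their shares are not matched for brightness. Below the 25th percentile lay 4187 of the 8473, against 18 of the 66 members. Of these 4187, 12 were called higher and 3 lower, and 45 were lower at an unadjusted limma p under 0.05. Centring each array on its median turned the split of calls over all probe sets from 1282 higher and 1260 lower to 1277 higher and 2117 lower, and gave 4 members lower and none higher. In whole larvae, fewer cells of a type and less RNA per cell cannot be told apart.

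**Figure D2:**
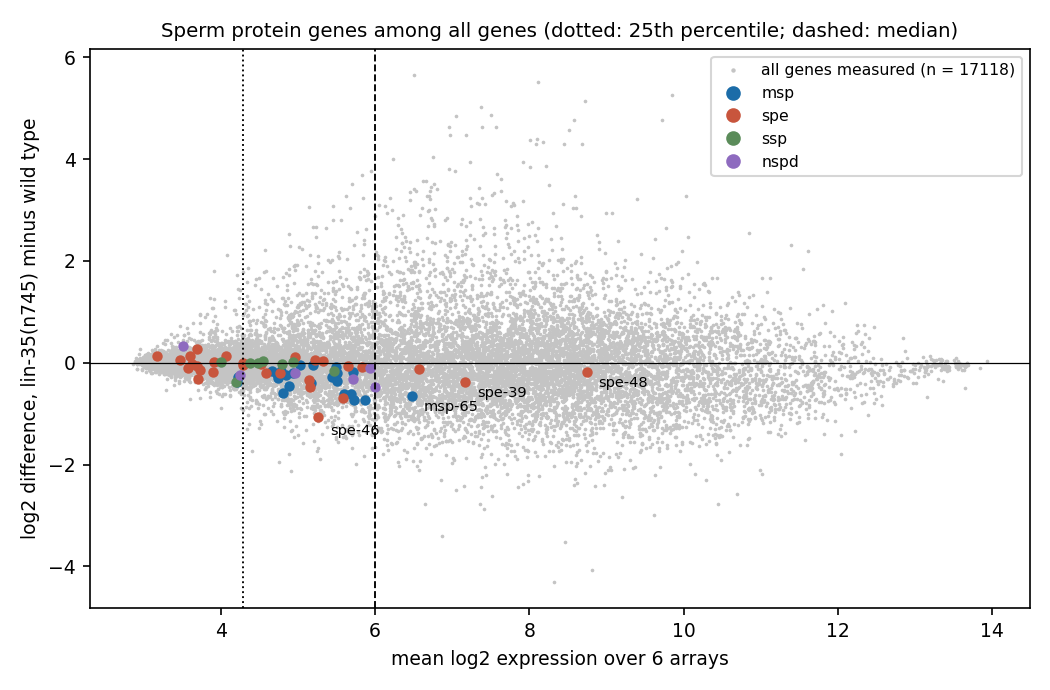
Mean log2 expression over 6 arrays (x axis) against the log2 difference lin-35(n745) minus wild type (y axis), for all 17118 genes in grey and the sperm protein genes by family in colour. The members lie between −1.06 and 0.33 on the y axis and, apart from 5 genes, to the left of the median level of 6.00.

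The larger of the called decreases was that of spe-46, a gene known from mutants with defective sperm activation. It read 6.14, 5.90 and 5.36 in the wild type and 4.48, 4.72 and 5.004 in the mutant, so the groups did not overlap. Its log2 difference was −1.06 (SE 0.24, limma adjusted p = 0.0338).

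The other was msp-59, which read 6.20, 6.20 and 5.87 in the wild type and 5.37, 5.29 and 5.43 in the mutant. Its groups did not overlap either, and its log2 difference was −0.72 (SE 0.16, limma adjusted p = 0.0280). In both genes every mutant reading lay below 5.49, the highest mean of a bacterial or yeast control, so no fold is given for them. Both calls were lost when any array but wild-type replicate 3 was left out. Over all alternatives the adjusted p ranged from 0.0187 to 0.199 for spe-46 and from 0.0195 to 0.144 for msp-59. The probe set of msp-59 belongs to the class that can match several transcripts.

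Differences were small and more often negative than positive. Of the members, 53 had a negative difference (80.3%, against 54.7% of all genes and 53.6% of those below the median level) and 13 a positive one. Their median was −0.17, against −0.04 for all genes and −0.02 for the genes below the median level. The 53 included all 23 msp genes, whose readings, as described below, are not separate measurements. Without probe sets that can match several transcripts, 19 of 28 members were negative. Their median was then −0.09, against −0.04 for all genes. Differences smaller than 0.5 in either direction were found in 58 of the 66. The same held for 7387 of the 8473 genes below the median level and for 11842 of all 17118 genes. Small differences were thus not particular to the members. In 13 members (19.7%), 7 of them msp genes, every mutant array read below every wild-type array, against 18.2% of all genes and 10.6% of those below the median level. In 1 member, nspd-9, every mutant array read above, against 13.1% and 8.32%. The genes below the median level are not matched to the members for brightness, since 4187 of them lay below the 25th percentile. Of those 4187, 272 had every mutant array below and 208 every mutant array above.

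The dim end of the scale was itself uneven between arrays. The 25th percentile of all probe sets was 4.36 on wild-type replicate 2 and 4.38 on mutant replicate 3, and 4.20 to 4.21 on the other arrays. Of the members, 26 had their highest reading on wild-type replicate 2 and 20 on mutant replicate 3. The lowest reading fell on mutant replicate 2 in 27 members and on mutant replicate 1 in 21. It fell on wild-type replicate 1 in 8 and on wild-type replicate 3 in 4. These 4 arrays had nearly the same 25th percentile, though it was lowest on mutant replicate 2 and next lowest on mutant replicate 1. On wild-type replicate 2 and mutant replicate 3, where it was higher, 1 and 5 members read lowest. Whether the lowest readings follow that percentile was not tested. The same counts over all genes are not given here. With wild-type replicate 2 and mutant replicate 3 removed together, which was tried only after the values were known, the members' median was −0.22 and none was called. The actin control, whose 3' reading minus its 5' reading is a measure of RNA quality, gave a difference that was 0.53 to 0.78 in the wild type and 2.31, 0.41 and 1.23 on mutant replicates 1 to 3. With mutant replicates 1 and 3 removed, likewise tried afterwards, the members' median was −0.22. That setting leaves 1 mutant array, replicate 2, on which 27 members read lowest, and takes the spread from the wild type, so that no member was called there says little.

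**Figure D3:**
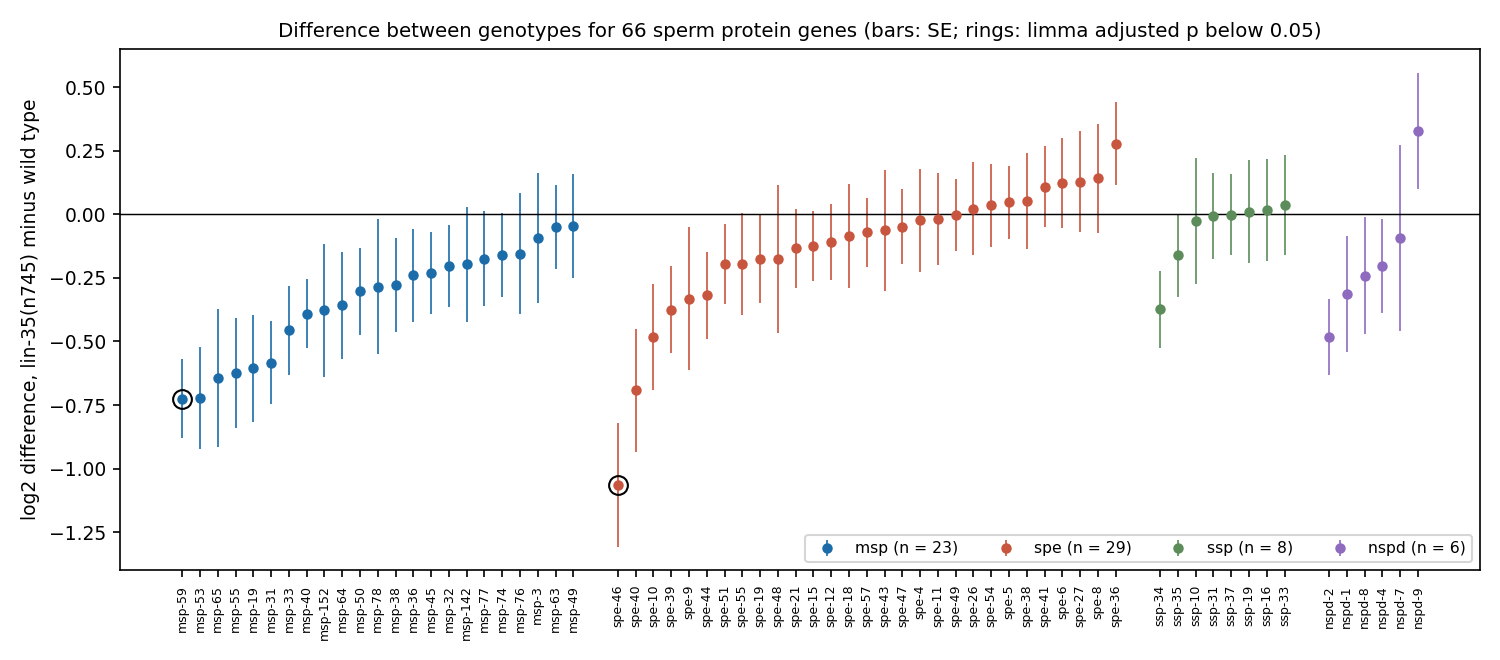
Log2 difference lin-35(n745) minus wild type for each of the 66 sperm protein genes, sorted within families, with bars of 1 SE. Rings mark spe-46 (−1.06) and msp-59 (−0.72), the members with a limma adjusted p below 0.05; the 23 msp genes all lie under 0.

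The msp genes, which encode the motility protein itself, shared a direction. The differences of all 23 were negative, between −0.72 and −0.05, with a median of −0.28. They were also negative in all 23 after median centring, repeated quantile normalization or cyclic loess, while 22 were negative with array weights and 21 with the actin 3' to 5' difference as a covariate. Leaving out single arrays left 21 to 23 negative. Every one of the 23 probe sets is marked as able to bind more than 1 transcript, and the coding sequences of msp genes are nearly the same, so the 23 readings are not separate measurements of 23 genes. In 7 of the 23, every mutant array read below every wild-type array, beside 18.2% of all genes and 10.6% of those below the median level. The latter set is not matched for brightness, since 4187 of its 8473 genes lay below the 25th percentile, against 2 of the 23 msp genes. The family's median was 5.27, 5.44 and 5.11 on the wild-type arrays and 5.01, 4.93 and 5.26 on the mutant arrays, so mutant replicate 3 lay within the wild-type range. The lowest reading fell on mutant replicate 1, the array with the actin difference of 2.31, in 13 of the 23, on mutant replicate 2 in 9 and on wild-type replicate 1 in 1.

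By the RefSeq gene table of assembly WBcel235, the msp genes lay in 3 stretches, 13 genes on chromosome II and 2 sets of 5 on chromosome IV, when split wherever more than 200 protein-coding genes separated one msp gene from the next. Other genes lie within the stretches, which span 294, 66 and 134 protein-coding genes, and 917 separate those on chromosome IV. The split was made after the values were seen, and differences between stretches were not tested. In the stretch from msp-55 to msp-65 the mean levels were 5.60 to 6.47 and the differences −0.72 to −0.61. It holds msp-53, at 6.46, 6.24 and 5.98 in the wild type and 5.20, 5.62 and 5.69 in the mutant, without overlap between the groups (−0.72, SE 0.20, limma adjusted p = 0.0620). It also holds msp-55 (−0.62), msp-19 (−0.61), msp-59 and msp-65. For msp-53 the call was made with array weights (adjusted p = 0.0417), median centring (0.0362) and repeated quantile normalization (0.0374).

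The other stretch on chromosome IV, from msp-76 to msp-38, had levels of 4.22 to 5.72 and differences of −0.28 to −0.15, and in none of its 5 genes did the groups separate. The 13 genes on chromosome II had levels of 4.21 to 5.51 and differences of −0.58 to −0.05. Among these, msp-31 had the lowest difference (−0.58, SE 0.16, limma adjusted p = 0.0624), with 5.09, 5.33 and 4.88 in the wild type and 4.57, 4.45 and 4.53 in the mutant. At the other end, msp-49 (−0.05, adjusted p = 0.931) and msp-63 (−0.05, adjusted p = 0.904) had overlapping groups. The brighter stretch on chromosome IV thus also held the more negative differences.

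**Figure D4:**
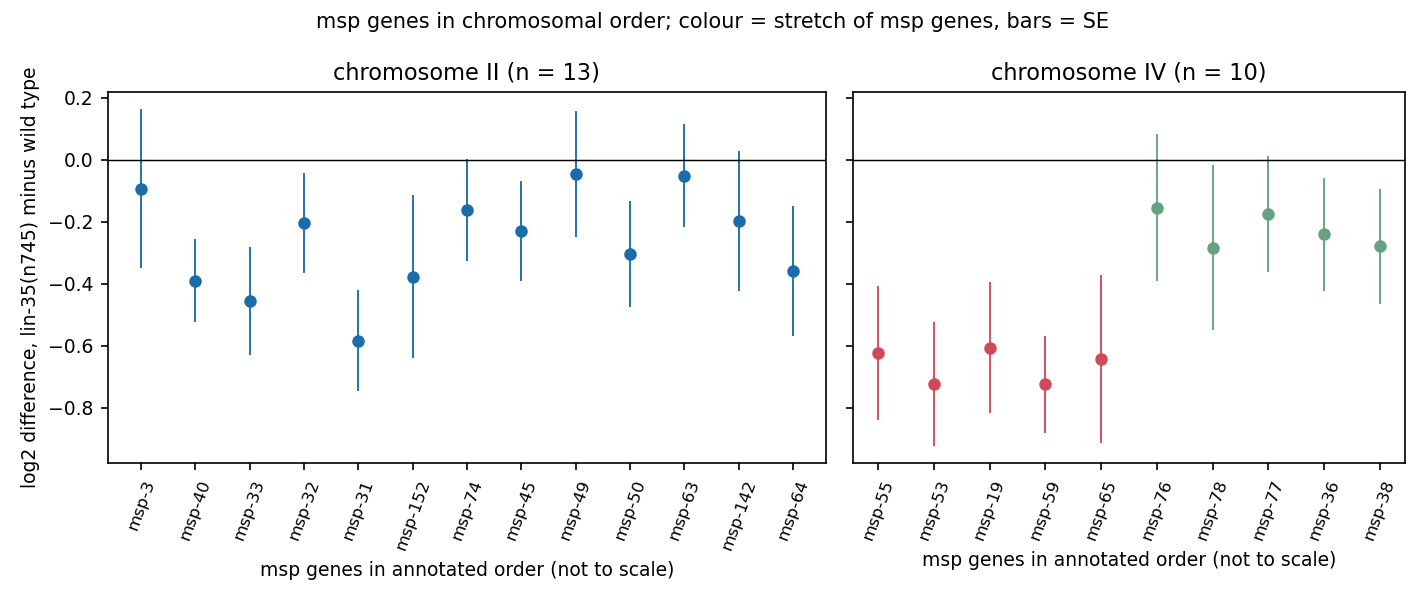
Log2 difference lin-35(n745) minus wild type of the 23 msp genes in their annotated order along chromosomes II and IV, with bars of 1 SE and a colour for each stretch. The stretch from msp-55 to msp-65 lies between −0.72 and −0.61, the following one between −0.28 and −0.15.

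The spe genes act at different steps of sperm formation and use, and were the most varied family in level, from 3.17 to 8.74. Their median difference was −0.07, with 20 negative and 9 positive. The spermatogenesis transcription factor gene spe-44 had a mean of 3.70 and differed by −0.32 (SE 0.17, limma adjusted p = 0.303), the casein kinase-like gene spe-6 had the lowest mean of any member (3.17), and the presenilin-like gene spe-4 read 4.52 (difference −0.02). In spe-44 every mutant array read below every wild-type array, from 3.33 to 3.68 against 3.71 to 4.06, in a range where control probe sets for foreign genes also read.

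Of the genes that act with the tyrosine kinase SPE-8 in sperm activation, 5 were members. The brightest was spe-43 (mean 5.65, difference −0.06). For spe-8 itself the mean was 4.06 and the difference 0.14 (adjusted p = 0.770), for spe-12 3.58 and −0.11, for spe-19 3.89 and −0.18, and for spe-27 3.60 and 0.13. None of the 5 passed the threshold.

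Members whose products sperm need at fertilization varied in level. The EGF-repeat gene spe-9 had a mean of 5.14 and a difference of −0.33 (SE 0.28), and the membrane protein gene spe-38 had 3.47 and 0.05. For spe-41, a TRPC-type channel gene, the mean was 4.96 and the difference 0.11, for spe-49 4.29 and −0.00, and for spe-51 4.77 and −0.20. The secreted protein gene spe-36 had the highest difference among spe genes, 0.28 (SE 0.16, limma adjusted p = 0.351), reading 3.61, 3.69 and 3.35 in the wild type and 3.93, 3.66 and 3.89 in the mutant. These groups overlapped, since mutant replicate 2 read below wild-type replicate 2.

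Among the remaining spe genes, spe-40 had the lowest difference after spe-46. It read 5.75, 6.25 and 5.78 in the wild type and 5.59, 5.28 and 4.83 in the mutant, without overlap, and differed by −0.69 (SE 0.24, limma adjusted p = 0.118). The palmitoyltransferase gene spe-10 differed by −0.48 (SE 0.21, adjusted p = 0.196) with overlapping groups. The vacuolar ATPase subunit gene spe-5 differed by 0.05 (95% interval −0.29 to 0.38), and spe-11, whose product is carried into the egg by sperm, by −0.02 (95% interval −0.45 to 0.41).

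The ssp genes differed little, with a median of −0.00. The lowest was ssp-34, at 4.26, 4.48 and 4.41 in the wild type and 3.94, 3.92 and 4.17 in the mutant (−0.37, SE 0.15, limma adjusted p = 0.166). Its groups did not overlap, whereas those of the other 7 did. The next lowest was ssp-35 (−0.16), and the highest were ssp-33 (0.04) and ssp-16 (0.02), both of whose signs turned under several alternatives.

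In the nspd family, whose median difference was −0.22, nspd-2 was the lowest, at 6.21, 6.40 and 6.12 in the wild type and 5.79, 5.67 and 5.83 in the mutant. Its groups did not overlap, and the difference of −0.48 missed the threshold (SE 0.15, limma adjusted p = 0.0824). The readings of nspd-7 were 6.00, 6.12 and 5.83 in the wild type and 5.71, 5.22 and 6.75 in the mutant, so the mutant arrays lay on both sides of the wild type (−0.09, SE 0.37). For nspd-9 the readings were 3.32, 3.34 and 3.36 in the wild type and 3.38, 3.45 and 4.17 in the mutant, and the positive difference of 0.33 (adjusted p = 0.444) came mainly from mutant replicate 3. The difference of nspd-1 was −0.31 (adjusted p = 0.469), with overlapping groups.

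No member lay on the X chromosome. In the RefSeq table all 66 members were placed, 22 on chromosome IV (33.3%), 18 on I (27.3%), 16 on II (24.2%), 6 on V and 4 on III. Of the 17079 measured genes with a chromosome in that table, 13.8% were on X. The 94 genes of these families in the table, measured or not, also included 0 on X. No test was made of this distribution, since many msp genes are near-identical copies lying close together.

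Genes that act upstream of, beside or in response to these proteins were described from lists of known genes. The shares to set beside their counts are those of all genes, 5.71% called higher and 6.12% lower. These shares are not matched for brightness. Dim genes are called less often, and the lists had median levels of 6.63, 4.73 and 8.16 in the order given below, against 6.05 for all genes. Of 17 regulators of sperm fate and spermatogenesis, 3 rose and 0 fell, and the median difference was 0.22 beside the −0.04 of all genes. The CPEB gene cpb-1, needed in spermatogenesis, read 6.06, 6.14 and 5.86 in the wild type and 8.15, 7.43 and 8.69 in the mutant, with no overlap (2.07, SE 0.31, limma adjusted p = 0.00774). It lost the call only with wild-type replicate 2 and mutant replicate 3 both left out (0.0615), and averaging over its probe sets gave 1.35. The RNA-binding protein gene rnp-8, a germline regulator known for promoting oocyte rather than sperm fate, rose by 1.92 (SE 0.22, adjusted p = 0.00275).

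The third was elt-1, named although outside the naming rule. It encodes a GATA factor of embryonic epidermis that is also known to bind msp promoters. It read 6.84, 6.60 and 6.91 in the wild type and 7.26, 7.83 and 7.71 in the mutant, again without overlap (0.82, SE 0.20, limma adjusted p = 0.0400). Its call was lost under 11 alternatives, among them the loss of any array but mutant replicate 1, and its adjusted p lay between 0.0198 and 0.232. The sperm fate genes fog-1 (0.36, adjusted p = 0.370) and fog-3 (−0.44, adjusted p = 0.225) and the spermatogenesis Argonaute genes alg-3 (−0.29) and alg-4 (−0.08) did not pass.

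A further list held genes with other names for sperm proteins and for proteins that act on sperm. Of its 23 measured genes, 1 rose and 1 fell, with a median of −0.00, and 10 lay below the 25th percentile. The gene that rose was try-5, which encodes a serine protease of seminal fluid that activates sperm. It read 5.49, 5.64 and 5.39 in the wild type and 9.01, 8.09 and 7.81 in the mutant, far apart, and rose by 2.80 (SE 0.31, limma adjusted p = 0.00244), with an adjusted p of at most 0.0380 under the alternatives. The gene that fell was swm-1, which encodes a protease inhibitor that holds back sperm activation in males, from 10.2, 10.6 and 10.4 to 9.41, 9.68 and 9.66 (−0.83, SE 0.17, adjusted p = 0.0238). The call of swm-1 was lost under 9 alternatives, including the loss of any array but mutant replicate 2, with adjusted p between 0.0151 and 0.179 over all of them. The sperm phosphatase genes gsp-3 (−0.18) and gsp-4 (−0.33) and the ferlin gene fer-1 (−0.37) were not called.

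On the receiving side of the MSP signal, 20 genes were measured, of which 2 rose and 0 fell (median 0.20), beside 5.71% and 6.12% of all genes. The innexin gene inx-22, which encodes a gap junction subunit that restrains oocyte maturation, read 5.56, 4.93 and 5.26 in the wild type and 9.30, 9.16 and 9.15 in the mutant. The groups were far apart, at 3.95 (SE 0.19, limma adjusted p = 0.000135). The ERK gene mpk-1 rose by 0.84 (SE 0.17, adjusted p = 0.0230), a call lost under 6 alternatives, in a range of 0.0106 to 0.180. Single arrays that ended it were replicates 1 (0.102) and 3 (0.0702) of the wild type and 3 (0.0628) of the mutant. The MSP receptor gene vab-1 differed by 0.18 (adjusted p = 0.748) and ceh-18, a sheath cell regulator, by 0.11 (adjusted p = 0.829).

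**Figure D5:**
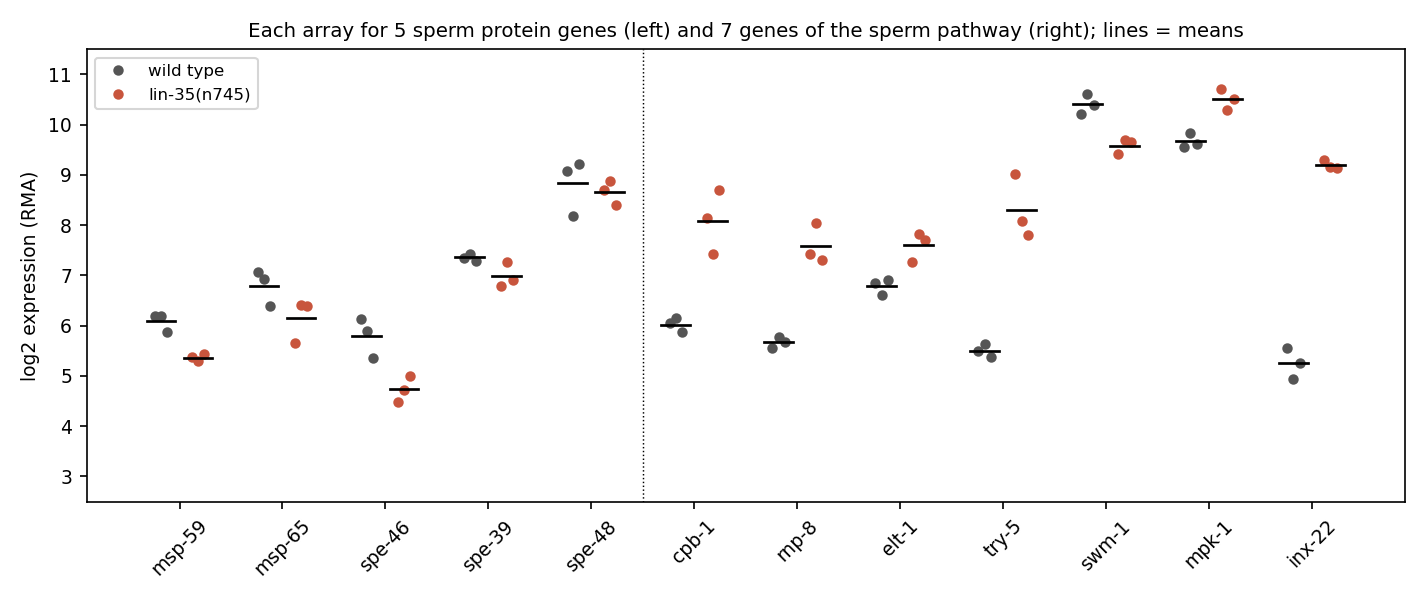
Log2 expression on each array for 5 sperm protein genes (left of the dotted line) and 7 genes of the sperm pathway (right), wild type in grey and lin-35(n745) in red, with lines at the means. The mutant points of cpb-1, rnp-8, try-5 and inx-22 lie clearly above the wild-type points, while the sperm protein genes on the left overlap or lie lower in the mutant.

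Markers of other cells were read on the same arrays, where 5.71% of all genes were called higher and 6.12% lower, shares again not matched for brightness. Of 8 genes active in primordial germ cells 4 rose, namely glh-1, pgl-1, pgl-3 and mes-4, and none fell (median 1.44). Their summed level on the linear scale was 672 to 994 in the wild type and 2829 to 3794 in the mutant. Among 17 oocyte and eggshell genes egg-2 alone was called, at 0.76 (limma adjusted p = 0.0385, lost under 13 alternatives, with a range of 0.0230 to 0.284), and the summed levels overlapped, at 1052 to 1190 in the wild type and 1047 to 1176 in the mutant. Of 13 embryo genes 0 rose and 1 fell, med-1 (−0.79, limma adjusted p = 0.0228, lost under 7 alternatives, with a range of 0.0169 to 0.162). Their summed level was 2165 to 3766 in the wild type and 4072 to 5863 in the mutant. The brightest of the 13, skn-1, weighs most in that sum, and it was not called (0.77, limma adjusted p = 0.175). The 5 yolk genes, which adults express, read between 3.30 and 5.50 with none called. Among larval tissue markers, 2 of 5 intestine genes rose, act-5 (1.65) and elt-2 (0.98), 0 fell, and the median difference was 0.39. The summed level of the 5 was 20731 to 22530 in the wild type and 17304 to 18614 in the mutant. The brightest of the 5, asp-1, weighs most in that sum. Its means were 13.9 in the wild type and 13.4 in the mutant (−0.49, limma adjusted p = 0.0629), and it was not called. Of 6 neuron genes 1 fell, ric-4 (−0.72), and none of the muscle, pharynx and epidermis genes was called. The calls of elt-2 and ric-4 were lost without some single arrays, with adjusted p up to 0.119 and 0.110 over the alternatives. Wild-type replicate 2, where 26 members read highest, was low for the muscle myosin gene unc-54, at 9.21 against 11.6 to 12.6 on the other arrays, and for the pharynx myosin gene myo-1, at 8.48 against 10.8 to 11.4. Without that array the members' median was −0.13 and none was called. The part of these markers in the members' values was not tested.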

How the data were processed

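For each of 6 arrays the authors deposited one log2 level per probe set, made with RMA (version not given) per the submitters' processing notes. The method subtracts background, equalises the distribution of the arrays and compresses differences among dim probe sets. No detection calls were used. Of 22625 probe sets, 77 controls were left out and 22548 were tested with limma 3.58.1 in R 4.3.3 (lmFit and eBayes, two-sided, Benjamini-Hochberg over all probe sets). The platform annotation, which can be old, gave 68 probe sets for the 66 members, and symbols checked through Entrez identifiers against the WBcel235 table changed 0 of them. The fit was tested on simulated data. Alternatives were other normalizations (median centring, repeated quantile, cyclic loess), array weights, trend and robust settings, filters and a floor on dim probe sets, averaging over the probe sets of a gene, removal of probe sets that can bind more than 1 transcript, an actin 3' to 5' covariate, a replicate block, and leaving out arrays. The members and lists were chosen with earlier results of these data known. Genes named were the markers, called members, the brightest, the extremes of each family and, per list, up to 2 called genes in each direction; others were chosen after their values were seen. Same-numbered arrays of the genotypes correlated at 0.05, 0.08 and 0.07 in their deviations, so they were not treated as pairs. No sequence is printed, since no sequence source was used here.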

Additional observations from a re-analysis of the deposited data

How the results depend on the processing

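No member was called higher under any of the 20 alternatives. The count of members called lower, 2 in the report, was 4 (with msp-31 and msp-53) under array weights, median centring or a repeated quantile step, 1 with trend and robust settings, with the replicate block or without probe sets that can match several transcripts, and 0 with the actin 3' to 5' covariate, without probe sets below the 50th percentile (5 members left, median −0.37), without mutant replicates 1 and 3, or without wild-type replicate 2 and mutant replicate 3 (both chosen after seeing the data; the first leaves 1 mutant array, assumed to vary like the wild type, and its 0 says little). Without single arrays it was 0 to 2, the members' median −0.28 to −0.11, and all calls 1002 to 2380 against 2542. With a floor at the 10th percentile 1552 probe sets were called (members msp-40 and msp-59), without probe sets matching several transcripts 1643, and with the pairs of arrays named above left out 768 and 645. The call of msp-59 was lost with the replicate block (adjusted p = 0.0538), that of spe-46 was not (0.0464), and the block made 3063 calls in all. Members near the floor numbered 18 by the 25th percentile, 6 by the 10th and 61 by the 50th. Signs turned, never with a call, for genes near 0. With the actin covariate ssp-16 was −0.18 and ssp-33 −0.12; with median centring they were −0.069 and −0.049; with array weights ssp-16 was −0.018 and msp-63 0.027. Without mutant replicates 1 and 3, ssp-16 was −0.38, ssp-33 −0.077, spe-8 −0.069 and spe-48 0.040, and without wild-type replicate 2 and mutant replicate 3, ssp-16 was −0.079 and msp-63 0.012. Without single arrays, msp-49 ranged from −0.19 to 0.13, msp-63 from −0.12 to 0.072, nspd-7 from −0.52 to 0.24, spe-48 from −0.50 to 0.019, spe-8 from −0.062 to 0.25, ssp-16 from −0.085 to 0.22 and ssp-33 from −0.13 to 0.15. The cause of these changes was not tested.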

Other observations

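A further 14 probe sets carried several gene symbols with at least 1 from these families, and no gene was named from them. Their means lay between 3.70 and 6.27 and their differences between −0.85 and 0.05, with 13 of 14 negative and none called (limma, smallest adjusted p = 0.0621, 2 at an unadjusted p under 0.05). Of the 94 family genes in the RefSeq table, 17 were represented only on such shared probe sets and 11 on none listed, 66 being the members described above. Of those 94, 6 are annotated as pseudogenes.

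A second single-symbol probe set was present for msp-32 and spe-55. That of msp-32 does not carry the mark of probe sets that can match several transcripts, and its difference, −0.22 (SE 0.16), was close to the −0.20 of the brighter one at a lower level, 3.94 against 4.93. For spe-55 the differences were −0.04 and −0.19.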
